A study of Mus musculus with 5 samples.

Results

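Interferon-stimulated genes were followed in murine bone marrow (BM) plasma cells (PCs), the antibody-secreting cells that persist in the marrow after immunization. The 39 genes were chosen by name as typical members of the antiviral program, with earlier results of these data known. Each was read from a probe set that the platform annotation gives to that gene alone, the brightest where there were several. Of the 39 genes, 37 had such a probe set, out of 18193 genes that had one in the whole series. *Ifi44* had none, the probe set of *Isg15* is shared with another gene, and neither was analysed here. Testing required an intensity of 50 or more in 2 or more of the 5 arrays. By this rule 33 of the genes were tested, among 13578 genes and 30477 probe sets in all, and 4 stayed under 50 in all 5 arrays. All 33 tested genes reached 50 in at least 1 cultured array with the probe set chosen for them.

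Cultured PCs (3 arrays) had spent 3 days with ST2 cells, a stromal line from mouse marrow, and the cytokine APRIL, under physiological oxygen, and were then sorted by flow cytometry. Ex vivo PCs (2 arrays) went straight to RNA after isolation. All cells came from wild-type C57BL/6J mice immunized repeatedly with the hapten-carrier antigen that the labels call NP-CCG (NP-CGG in the study's methods) in incomplete Freund's adjuvant, and all were isolated by magnetic depletion of cells bearing B220 or CD49b and enrichment of cells high in CD138. The sources used here give neither age nor sex of the mice. Experiment 1 gave 1 cultured and 1 ex vivo array, and experiment 2 gave 2 cultured arrays and 1 ex vivo array. Nothing says that these 2 cultured arrays came from separate cultures, so p-values measure only the spread between these samples, which may be technical. The sort by flow cytometry was applied to cultured PCs alone and cannot be told apart from culture. Precision is limited by the small number of arrays: for 3 against 2, the smallest two-sided p of an exact permutation test is 0.1.

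Type I interferons bind the receptor IFNAR and act through its kinases JAK1 and TYK2. The signal reaches target promoters at the interferon-stimulated response element (ISRE), where IRF9 contacts the DNA, whereas the response to interferon gamma is known for the gamma-activated sequence (GAS). The induced proteins sense viral nucleic acid, block translation, degrade RNA, trap virions or attach the ubiquitin-like protein ISG15, and some of them feed back on the pathway. Many of these genes keep a basal level without infection through tonic interferon signalling.

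The arrays were of similar brightness, with median intensities between 87.05 and 94.19. The 9 PC markers examined, *Sdc1* and *Xbp1* among them, reached 50 in every array, and their summed intensity was between 56740 and 59180 in cultured PCs and 59470 and 61810 in ex vivo PCs. Markers of other cells differed between the groups. The summed intensity of 16 stromal markers was 5781, 14200 and 14470 in cultured PCs, against 1222 and 825.9 in ex vivo PCs, and 9 of the 14 tested were higher in culture once the experiment was added as a block, where 1.24% of all tested probe sets were higher and 0.561% lower. Among these 9, *Col3a1*, *Col6a1*, *Cxcl12* and *Cav1* were under 50 in both ex vivo arrays. They entered the test only through the cultured arrays, where they were high, so their calls support nothing. Of 12 macrophage markers 10 were tested, and with the block 5 fell and 2 rose in culture. The markers that rose were *Cd68* and *Hmox1*, by 0.89 (log2, adjusted p = 0.0485) and 1.89 (adjusted p = 0.0234). Besides *C1qa* and *C1qb*, given below, those that fell were *Mrc1*, *Fcna* and *Vcam1*. With the block *Mrc1* differed by -1.6785 (log2, adjusted p = 0.0111), *Fcna* by -1.8025 (adjusted p = 0.00815) and *Vcam1* by -1.1662 (adjusted p = 0.0147). *Mrc1* and *Fcna* reached 50 in every array, and *Vcam1* was under 50 only in the cultured array of experiment 1. The summed intensity of all 12 macrophage markers was 3604, 2643 and 2199 in cultured PCs and 2597 and 2142 in ex vivo PCs. These sums rest mostly on *Cd68* and *Hmox1*, with mean log2 intensities of 9.99 and 9.11, against at most 6.86 for the others. Of the 10 tested markers, 7 were lower in culture in all 3 pairs and 2 were higher. The defining markers *C1qa*, *C1qb* and *C1qc* were under 50 in all cultured arrays and above it in both ex vivo arrays. *C1qa* and *C1qb* were among those that fell, and *C1qc* was not called (adjusted p = 0.0836). These genes entered the test only through the ex vivo arrays, where they were high, so their calls are given as values and support nothing. Of 6 tested markers of neutrophils and monocytes *Fn1*, which stromal cells also express, rose by 4.42 (log2, adjusted p = 0.0180) with the block. It was under 50 in the ex vivo array of experiment 2. *Fn1* thus met the filter only with cultured arrays, where it was high, and its call supports nothing. *Dntt* fell by 1.14 (adjusted p = 0.0171) among 8 tested B cell markers, and *Gzma* fell by 0.84 (adjusted p = 0.0404) among 7 tested markers of T and NK cells. For plasmacytoid dendritic cells, known for their interferon output, all 9 markers were tested and none was called for culture, with summed intensities of 6227, 4534 and 3967 in cultured PCs and 5705 and 4295 in ex vivo PCs. These sums rest mostly on *Tcf4*, with a mean log2 intensity of 11.58, against at most 8.57 for the others. In all 3 pairs *Tcf4* alone was higher in culture and 4 markers were lower. *Siglech*, 1 of these 4, differed by -0.35 (log2, adjusted p = 0.199) with the block. The part of these cells in the values below was not tested, and in bulk samples fewer cells of a type and less RNA per cell cannot be told apart.

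Most of the 33 interferon-stimulated genes had a lower level in cultured than in ex vivo PCs, but no single gene passed the test for culture. The mean of the cultured arrays was lower for 29 of 33 genes, against 53.3% of all tested probe sets and 60.9% of all tested genes. The median difference was -0.25 on the log2 intensity scale, with a range between -1.38 and 0.37, and the median over all tested genes was -0.06. In the model with culture alone, 0 of the 33 passed at an adjusted p under 0.05, where 0.0459% of all tested probe sets did (limma). At an unadjusted p under 0.05, 5 genes were lower (*Irf7*, *Rsad2*, *Ifi27l2a*, *Cmpk2* and *Herc6*) and 1 was higher (*Parp9*), and 2.61% and 3.98% of all tested probe sets lay past that limit in these directions. Adding the experiment as a block left the count at 0 of the 33, against 1.80% of all tested probe sets. At an unadjusted p under 0.05 the block put 14 genes lower and 1 higher, beside 7.37% and 11.1% of all tested probe sets.

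The direction was read within the experiments too. In experiment 1 the median difference between the cultured and the ex vivo array was -0.27 (log2), and in experiment 2 it was -0.17 and -0.21 for the 2 cultured arrays, which share 1 ex vivo array. Of the 33 genes, 20 were lower in culture in all 3 of these pairs, against 24.9% of all tested probe sets and 29.7% of all tested genes. All cultured arrays lay below all ex vivo arrays for 14 genes, a share of 42.4%, where 10.6% of all tested probe sets and 13.0% of all tested genes did so. These were *Ifit3*, *Isg20*, *Irf7*, *Oasl1*, *Oas1a*, *Oas3*, *Rsad2*, *Usp18*, *Ifi27l2a*, *Ifi35*, *Cmpk2*, *Herc6*, *Gbp2* and *Gbp3*. Only *Parp9* among the 33 had all cultured arrays above all ex vivo arrays, against 9.42% of all tested probe sets. Several probe sets were tested for 15 of the genes, and for 11 of these they all had the same sign of difference.

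**Figure D1:**
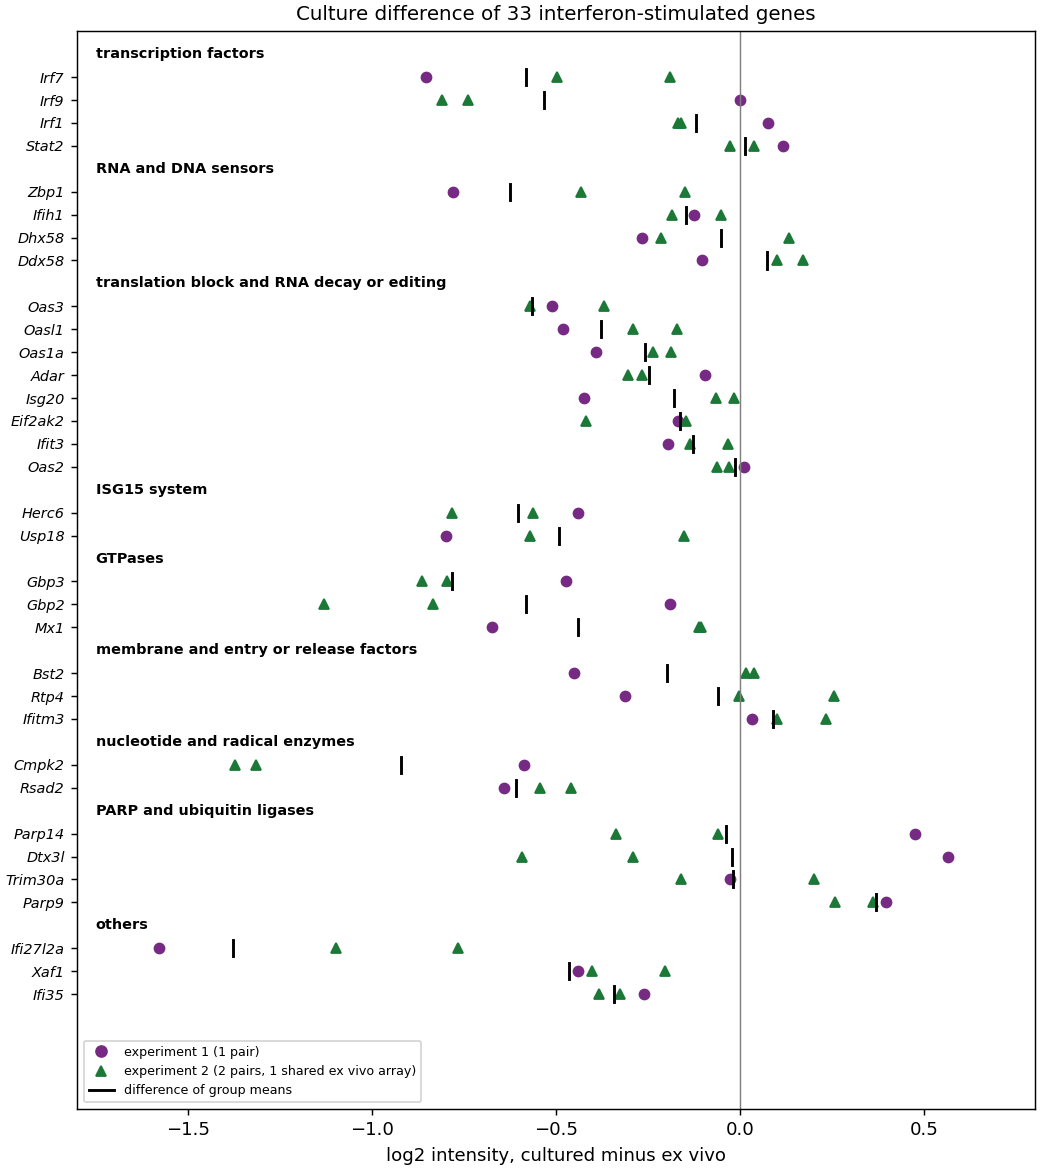
Each row is 1 of 33 interferon-stimulated genes, grouped by role, and the horizontal axis gives the log2 intensity of cultured minus ex vivo PCs. Circles show the pair of experiment 1, triangles the 2 pairs of experiment 2 and bars the difference of group means, which lies below 0 for 29 genes.

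Promoters are shown for genes with large differences, so that they can be read beside the values. RefSeq promoter windows of GRCm38.p6, with 250 bases before and 50 after the start site, were listed for 29 of the 39 genes. The ISRE core, GAAA followed by any 2 bases and again GAAA, searched on both strands, was in the windows of 15 of these 29, or 51.7%, and in 3.99% of all 27025 genes with a window. The GAS motif TTCNNNGAA, whose letters read the same on both strands, was in 9 of the 29, or 31.0%, and in 9.55% of all genes. Neither match is evidence of binding. The 120 bases just before the start site lie at chr12:26469095-26469214 (plus strand) for *Cmpk2*, chr3:142559924-142560043 (plus) for *Gbp3*, chr7:141266425-141266544 (minus) for *Irf7*, chr3:142620543-142620662 (plus) for *Gbp2* and chr5:120777660-120777779 (minus) for *Oas3*, each printed 5′ to 3′ on the gene's strand with ISRE cores in capitals.
Cmpk2: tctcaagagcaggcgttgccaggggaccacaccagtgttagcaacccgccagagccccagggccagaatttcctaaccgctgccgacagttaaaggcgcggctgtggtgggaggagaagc
Gbp3: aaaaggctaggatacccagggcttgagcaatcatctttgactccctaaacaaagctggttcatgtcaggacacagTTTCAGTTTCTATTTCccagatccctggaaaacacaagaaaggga
Irf7: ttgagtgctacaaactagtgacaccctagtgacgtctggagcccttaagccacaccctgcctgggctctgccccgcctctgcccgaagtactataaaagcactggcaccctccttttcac
Gbp2: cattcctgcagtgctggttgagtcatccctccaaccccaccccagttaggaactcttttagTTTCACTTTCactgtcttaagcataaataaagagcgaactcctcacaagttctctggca
Oas3: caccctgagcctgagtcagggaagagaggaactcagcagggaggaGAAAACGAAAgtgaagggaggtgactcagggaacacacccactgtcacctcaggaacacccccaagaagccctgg
In *Gbp3* a pair of overlapping cores lies between -45 and -30 from the start site, in *Gbp2* the core lies between -59 and -50, and in *Oas3* between -75 and -66. *Cmpk2* and *Irf7* have no such letters in these stretches.

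*Ifi27l2a* and *Cmpk2* had the largest culture differences of the 33 genes. *Ifi27l2a*, which encodes a small interferon-inducible membrane protein, had log2 intensities of 7.94, 7.03 and 7.36 in cultured PCs (the array of experiment 1 first in each group, here and below), against 9.52 and 8.13 in ex vivo PCs. All cultured arrays lay below both ex vivo arrays, and the ex vivo array of experiment 1 was the highest. The difference was -1.38 ± 0.49 (log2, moderated SE, adjusted p = 0.715) with culture alone and -1.21 ± 0.19 (adjusted p = 0.0508) with the block, just outside the threshold. *Cmpk2*, a mitochondrial nucleotide kinase, had 6.84, 7.07 and 7.13 in cultured PCs, against 7.43 and 8.44 in ex vivo PCs. Here the ex vivo array of experiment 2 stood highest, and the groups did not overlap. The difference was -0.92 ± 0.32 (log2, adjusted p = 0.706) and with the block -1.02 ± 0.19 (adjusted p = 0.0712). A second probe set of *Cmpk2* had log2 intensities of 5.11, 4.79 and 4.62 in cultured PCs, all under an intensity of 50, against 6.57 and 6.37 in ex vivo PCs. It entered the test only through the ex vivo arrays, where it was high, so its call is given as a value and supports nothing. Of 55 tested probe sets of these genes it was the only 1 to pass with the block, at -1.58 (log2, adjusted p = 0.00798), and it missed the threshold with culture alone (adjusted p = 0.109). *Rsad2*, the neighbour of *Cmpk2* on chromosome 12, encodes viperin, a radical enzyme that makes a chain-terminating nucleotide. Its log2 intensities were 6.09, 5.83 and 5.92 in cultured PCs, against 6.73 and 6.38 in ex vivo PCs, without overlap. The difference was -0.61 ± 0.17 (log2, adjusted p = 0.567), and -0.56 ± 0.11 (adjusted p = 0.0781) with the block. A second tested probe set of *Rsad2* differed by -0.11 (log2) and by -0.15 (adjusted p = 0.627) with the block, and it was higher in culture in experiment 1, by 0.096.

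The 3 tested interferon-inducible GTPases were lower in cultured PCs in all 3 pairs, by the probe set chosen for each. *Gbp3*, a guanylate-binding protein of the defence against intracellular microbes, had log2 intensities of 8.92, 8.10 and 8.17 in cultured PCs, against 9.40 and 8.96 in ex vivo PCs. The cultured array of experiment 1 almost reached the ex vivo array of experiment 2, but the groups did not overlap. The difference was -0.78 ± 0.31 (log2, adjusted p = 0.769), and -0.68 ± 0.13 (adjusted p = 0.0748) with the block. Its relative *Gbp2* had 7.72, 7.90 and 7.60 in cultured PCs, against 7.91 and 8.73 in ex vivo PCs. The groups were separated by a very narrow margin, between a cultured array of experiment 2 (7.8975) and the ex vivo array of experiment 1 (7.9097). The difference was -0.58 ± 0.28 (log2, adjusted p = 0.827), and it was wider in experiment 2 than in experiment 1. A second tested probe set of *Gbp2* differed by -0.49 (log2). It had the same value, 7.31, in both arrays of experiment 1, and its groups overlapped. *Mx1*, a dynamin-like GTPase, was under 50 in 3 of 5 arrays and had a difference of -0.44 (log2). *Mx2* was under 50 throughout, with log2 intensities of 4.47, 4.53 and 4.37 in cultured PCs and 4.47 and 4.52 in ex vivo PCs.

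**Figure D2:**
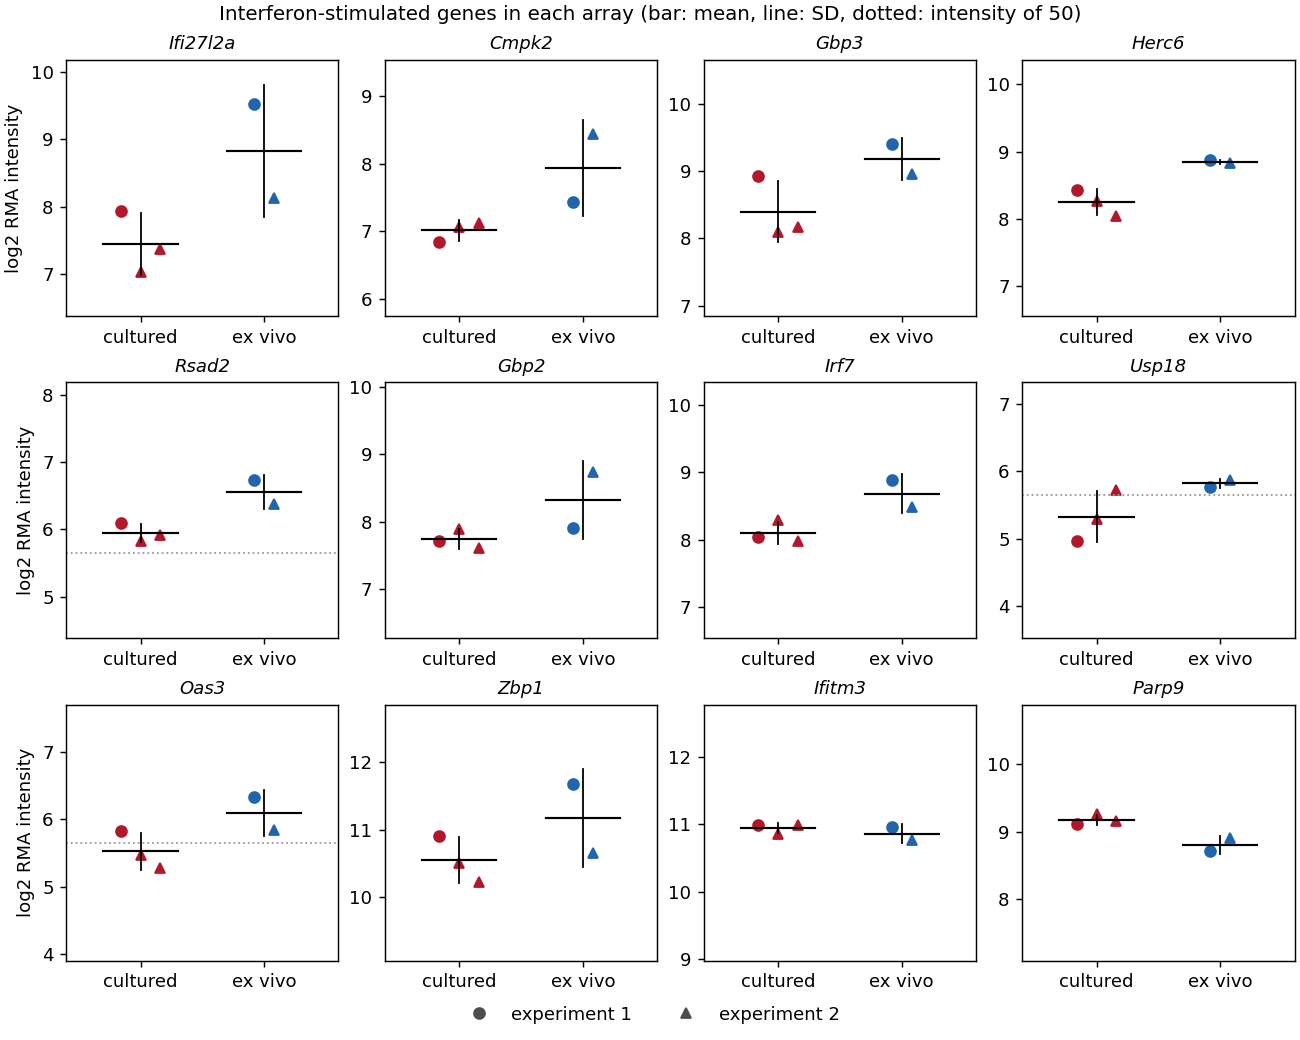
Log2 RMA intensity of 12 interferon-stimulated genes in each array, with cultured PCs left of ex vivo PCs, circles for experiment 1 and triangles for experiment 2. Horizontal bars are group means, vertical lines are SDs (n = 3 and 2 arrays) and the dotted line marks an intensity of 50. *Ifi27l2a* shows the widest gap between the group means and *Parp9* is higher in all cultured arrays.

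The ISG15 system was represented by 2 genes, both lower in culture in all 3 pairs. *Herc6*, the main ligase for ISG15 in the mouse, had log2 intensities of 8.43, 8.27 and 8.05 in cultured PCs, against 8.87 and 8.83 in ex vivo PCs. The ex vivo arrays lay close together and above all cultured arrays, and the difference was -0.60 ± 0.16 (log2, adjusted p = 0.525). *Usp18*, which removes ISG15 and restrains the receptor IFNAR, had 4.97, 5.30 and 5.71 in cultured PCs, against 5.77 and 5.87 in ex vivo PCs. Both ex vivo arrays were above an intensity of 50 and 1 of 3 cultured arrays was, and the difference was -0.49 ± 0.24 (log2, adjusted p = 0.831).

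Among the transcription factors the values differed. *Irf7*, which drives interferon genes and its own induction, had log2 intensities of 8.03, 8.29 and 7.98 in cultured PCs, against 8.89 and 8.48 in ex vivo PCs. The groups did not overlap, and the difference was -0.58 ± 0.19 (log2, adjusted p = 0.655). *Irf9*, which binds the ISRE in response to type I interferon, had 9.25, 8.41 and 8.34 in cultured PCs, against 9.25 and 9.15 in ex vivo PCs. The deposited value was identical in both arrays of experiment 1, and both cultured arrays of experiment 2 were lower. Of all tested probe sets, 16.2% had the same value in at least 2 arrays, so this tie is not read as a measured equality. *Irf1*, which also mediates interferon gamma responses, and *Stat2* had differences of -0.12 and 0.01 (log2), and their groups overlapped.

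None of the 4 sensors of viral nucleic acid was called for culture. *Zbp1*, which recognises Z-form nucleic acid, had log2 intensities of 10.91, 10.51 and 10.23 in cultured PCs, against 11.69 and 10.66 in ex vivo PCs. It was lower in culture within each experiment, but the groups overlapped across experiments, and the difference was -0.62 ± 0.37 (log2, adjusted p = 0.858). *Ddx58*, which encodes RIG-I, *Ifih1*, which encodes MDA5, and their relative *Dhx58* had differences between -0.15 and 0.07 (log2).

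Of 11 genes that block translation or degrade or edit RNA, 8 were tested, and 7 of these were lower in culture in all 3 pairs. *Oas3*, a synthase of the second messenger that activates RNase L, had log2 intensities of 5.82, 5.48 and 5.27 in cultured PCs, against 6.33 and 5.84 in ex vivo PCs. The cultured array of experiment 1 and the ex vivo array of experiment 2 were almost level, and both cultured arrays of experiment 2 were under 50. The difference was -0.56 ± 0.24 (log2, adjusted p = 0.798). *Isg20*, a 3′ exonuclease, had 11.91, 12.20 and 12.25 in cultured PCs, against 12.33 and 12.27 in ex vivo PCs. These values differed by -0.18 ± 0.16 (log2, adjusted p = 0.903), and the gap in experiment 2 was at most 0.07. *Oasl1*, *Oas1a*, *Oas2*, *Ifit3*, the RNA editing gene *Adar* and *Eif2ak2*, which encodes the translation-blocking kinase PKR, had differences between -0.38 and -0.01 (log2). The untested genes of this role lay under 50 in every array. *Ifit1*, a protein that binds foreign RNA caps, had log2 intensities of 4.79, 4.94 and 4.79 in cultured PCs and 5.33 and 5.14 in ex vivo PCs. Its relative *Ifit2* had 4.42, 4.69 and 4.69 in cultured PCs and 4.96 and 4.48 in ex vivo PCs. *Oasl2* had 4.17, 4.19 and 4.36 in cultured PCs and 4.70 and 4.67 in ex vivo PCs. Values this low give no order.

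Membrane factors and the PARP genes had differences on both sides of 0. *Bst2*, or tetherin, which holds virions at the cell surface, had log2 intensities of 11.09, 11.16 and 11.18 in cultured PCs, against 11.54 and 11.14 in ex vivo PCs. Only the ex vivo array of experiment 1 stood out, and the difference of -0.20 ± 0.17 (log2, adjusted p = 0.896) was 0.00090 without it. *Ifitm3*, which blocks viral entry from endosomes, had 10.99, 10.86 and 10.99 in cultured PCs, against 10.96 and 10.76 in ex vivo PCs, a difference of 0.09 ± 0.14 (log2, adjusted p = 0.934). It was -0.011 without the ex vivo array of experiment 2. *Parp9*, whose product works as a complex with the ubiquitin ligase DTX3L, had 9.11, 9.26 and 9.16 in cultured PCs, against 8.71 and 8.90 in ex vivo PCs. All cultured arrays were above both ex vivo arrays, and the difference was 0.37 ± 0.14 (log2, adjusted p = 0.740). On chromosome 16 *Dtx3l* lies between *Parp9* and *Parp14*, an ADP-ribosyltransferase gene. *Dtx3l* had log2 intensities of 9.27, 8.61 and 8.91 in cultured PCs, against 8.70 and 9.20 in ex vivo PCs. *Parp14* had 10.83, 9.63 and 9.90 in cultured PCs, against 10.35 and 9.96 in ex vivo PCs. Both were higher in culture in experiment 1 and lower in culture in experiment 2, so their groups overlapped. For *Dtx3l* this rests on 1 probe set, since a second tested one was higher in culture in both, by 0.10 (log2) in experiment 1 and a mean of 0.23 in experiment 2. *Rtp4* and *Trim30a* had differences of -0.06 and -0.02 (log2), and *Ifi35*, whose groups did not overlap, had -0.34.

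More of these genes were called between the experiments than for culture. With culture as a covariate, 6 of the 33 fell in experiment 2 relative to experiment 1 and 0 rose at an adjusted p under 0.05 (limma), a share of 18.2%. Of all tested probe sets 13.8% were lower and 13.0% higher, so the share of these genes that was called, 18.2%, was below the 26.8% over all tested probe sets. The called genes were *Ifi27l2a*, *Parp14*, *Zbp1*, *Gbp3*, *Xaf1* and *Oas3*. The single direction depends on the probe sets chosen: of all 55 tested probe sets of these genes, 11 were called lower and 2 higher. The higher ones belonged to *Herc6* (0.78, adjusted p = 0.0113) and *Ddx58* (0.45, adjusted p = 0.0312), and another probe set of *Ddx58* was lower (-0.67, adjusted p = 0.0104). *Ifi27l2a* had a difference of -1.02 ± 0.19 (log2, adjusted p = 0.0169), with -0.74 between the cultured and -1.39 between the ex vivo arrays. *Zbp1* was lower by a similar pattern, at -0.75 ± 0.16 (log2, adjusted p = 0.0252), with -0.54 between the cultured and -1.03 between the ex vivo arrays. *Parp14* showed the reverse order, with -1.06 between the cultured and -0.39 between the ex vivo arrays and a fitted difference of -0.77 ± 0.19 (log2, adjusted p = 0.0344).

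*Gbp3* had a fitted difference between the experiments of -0.64 ± 0.13 (log2, adjusted p = 0.0202). *Xaf1*, which binds the caspase inhibitor XIAP, had log2 intensities in experiment 2 of 7.19 and 6.99 in cultured and 7.40 in ex vivo PCs, against 7.65 in cultured and 8.09 in ex vivo PCs in experiment 1. All arrays of experiment 2 lay below those of experiment 1, and the difference was -0.62 ± 0.12 (log2, adjusted p = 0.0183). A second tested probe set of *Xaf1*, under 50 in 3 arrays, overlapped between the experiments and differed by -0.04 (log2, adjusted p = 0.798). *Oas3* had -0.46 ± 0.12 (log2, adjusted p = 0.0385), almost alike in cultured (-0.44) and ex vivo (-0.48) arrays. Its cultured arrays of experiment 2 were both under 50. Over all 33 genes, 9 had every array of experiment 2 below every array of experiment 1 and 4 had them above, beside 25.2% and 24.1% of all tested probe sets. RNA quality values moved with the experiment as well. For *Actb*, the 3′ control probe set over the 5′ one gave a log2 ratio that lay between -0.12 and -0.01 in experiment 2, against 0.77 in cultured and 0.31 in ex vivo PCs in experiment 1, and its part in these differences was not tested. None of the 6 calls was made when an ex vivo array of either experiment, or the single cultured array of experiment 1, was left out, and 1 was made without the second cultured array of experiment 2.

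**Figure D3:**
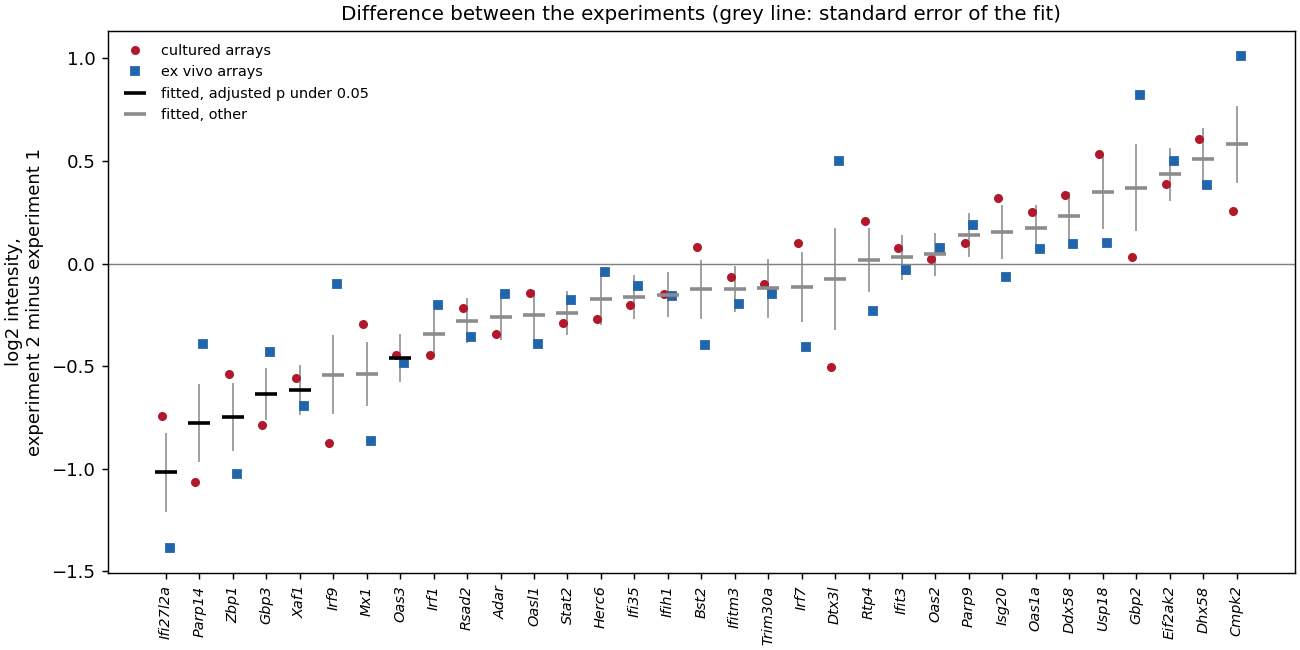
Log2 intensity of experiment 2 minus experiment 1 for the 33 genes, with circles for cultured and squares for ex vivo arrays. Horizontal marks are fitted differences with their standard errors, black for the 6 genes with an adjusted p under 0.05, all of which lie below 0.

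Whether the culture difference itself varied between the experiments was tested as an interaction, with 1 residual degree of freedom. No gene of the 33 and no tested probe set passed (0% at an adjusted p under 0.05, limma). At an unadjusted p under 0.05 there were 4 of the genes (*Irf9*, *Mx1*, *Bst2* and *Cmpk2*) and 6.59% of all tested probe sets. *Dtx3l* had 0.56 (log2, cultured minus ex vivo) in experiment 1 and a mean of -0.44 in experiment 2, and *Parp14* had 0.47 and -0.20. *Gbp2* had -0.19 in experiment 1 and -0.98 in experiment 2, *Cmpk2* had -0.59 and -1.34, and *Irf9* had 0.00 (the tie given above) and -0.77. *Ifi27l2a* ran the other way, with -1.58 in experiment 1 and -0.93 in experiment 2. The sign was opposite in the experiments for 6 genes (*Irf1*, *Oas2*, *Ddx58*, *Bst2*, *Parp14* and *Dtx3l*), beside 24.2% of all tested probe sets.

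Ligands, receptors and sensing genes upstream of the response were not called for culture. Of 19 interferon genes 10 had a probe set and 7 of these were under 50 in all arrays, *Ifnb1* and *Ifng* among them. The 3 tested ligands were not called, and *Ifnz* had the largest difference, 0.79 (log2, adjusted p = 0.502). All 9 receptor and kinase genes with a probe set were tested and none was called for culture with or without the block. *Ifnar1* and *Ifnar2*, the chains of IFNAR, differed by 0.16 and -0.06 (log2). *Tyk2* and *Ifngr2*, a chain of the interferon gamma receptor, were lower in experiment 2, by -0.84 (adjusted p = 0.0121) and -0.49 (adjusted p = 0.0238). Over all tested probe sets 13.8% were lower. Of 13 tested genes that sense nucleic acid or relay that signal to interferon genes none was called for culture, and 3 (*Ticam1*, *Ikbke* and *Irf3*) were lower in experiment 2, beside 13.8% of all tested probe sets.

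None of 7 tested feedback inhibitors was called with culture alone. With the block *Ptpn6*, the phosphatase SHP-1, fell by 0.74 (log2, adjusted p = 0.0455), where 0.561% of all tested probe sets were lower. *Irf2*, a repressor that competes at the ISRE, was not called for culture and was lower in experiment 2 by -1.44 (log2, adjusted p = 0.00405). *Ptpn2* and *Pias1* were also lower in experiment 2 and *Ptpn6* was higher, beside 13.8% and 13.0% of all tested probe sets in these directions. A wider set of 48 interferon-stimulated genes had 35 tested. Their median culture difference was -0.07 (log2), close to the -0.06 over all tested genes. In all 3 pairs, 13 of the 35 were lower in culture and 5 higher, beside 29.7% and 18.9% of all tested genes. None of the 35 was called with culture alone and 1 rose with the block, beside 1.24% of all tested probe sets. This was *Ifitm2*, with log2 intensities of 7.35, 7.80 and 8.09 in cultured PCs, against 5.47 and 5.71 in ex vivo PCs. It differed by 2.16 ± 0.25 (log2, adjusted p = 0.109), and by 2.09 ± 0.15 (adjusted p = 0.00630) with the block. The ex vivo array of experiment 1 was under an intensity of 50. *Ifitm2* thus met the filter only with cultured arrays, where it was high, so its call is given as a value and supports nothing. Its relative *Ifitm3* overlapped between the groups, as given above. For the experiments, 3 of the 35 were higher and 7 lower in experiment 2, beside 13.0% and 13.8% of all tested probe sets, with *Lgals3bp* at -1.66 (log2, adjusted p = 0.00255).

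The genes of the interferon gamma response and antigen presentation moved in both directions. Of 30 genes 21 were tested, none was called with culture alone, and with the block 2 rose and 1 fell, beside 1.24% and 0.561% of all tested probe sets. *Ccl5*, a chemokine that attracts T cells, had log2 intensities of 9.04, 8.24 and 8.33 in cultured PCs, against 6.00 and 6.23 in ex vivo PCs. It differed by 2.48 ± 0.23 (log2, adjusted p = 0.0130) with the block. *Cxcl10*, a chemokine induced by interferons, had 9.88, 8.79 and 8.78 in cultured PCs, against 8.35 and 7.51 in ex vivo PCs, and differed by 1.38 ± 0.12 (log2, adjusted p = 0.00975). *Gbp7*, a relative of *Gbp2* and *Gbp3*, had 8.44, 8.82 and 8.44 in cultured PCs, against 9.71 and 10.22 in ex vivo PCs, and fell by 1.46 on the log2 scale (SE 0.16, adjusted p = 0.0215). Without the block the adjusted p was 0.109 for *Ccl5*, 0.734 for *Cxcl10* and 0.248 for *Gbp7*. Stromal and macrophage markers differed between the same arrays, as given above, and their part in these values was not tested.

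**Figure D4:**
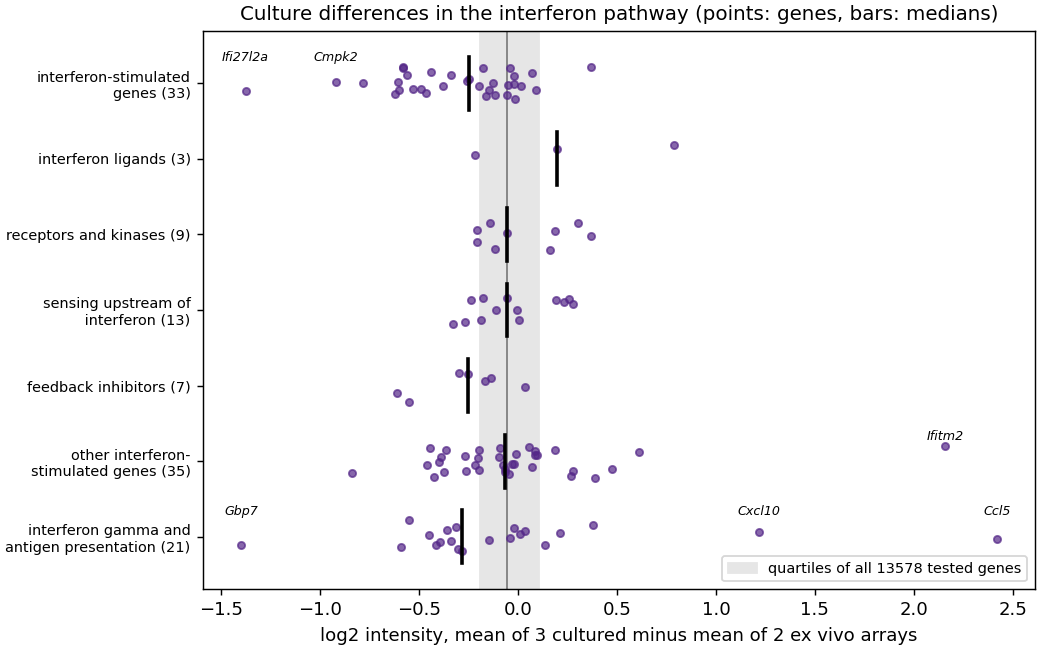
Log2 intensity of the mean of 3 cultured minus the mean of 2 ex vivo arrays, for the 33 interferon-stimulated genes and 6 lists of pathway genes, with 1 point per gene and bars at the list medians. The grey band spans the quartiles of all 13578 tested genes. *Ccl5*, *Ifitm2* and *Cxcl10* lie far above 0, and *Gbp7* and *Ifi27l2a* lie far below it.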

How the data were processed

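RNA of PCs was hybridized to Affymetrix mouse genome arrays. The authors processed the raw signals with RMA in the affy package, with GCOS also named in the submitters' processing notes, both without a version in the sources used here. Values were deposited as linear intensities between 4.94 and 26947.2, used unaltered apart from a log2 transform. Of 45101 probe sets, 64 controls were left out, 34945 carried 1 gene symbol, 932 several and 9160 none. Those that reached 50 in 2 or more arrays entered limma 3.58.1 under R 4.3.3 (lmFit, eBayes, Benjamini-Hochberg over 30477 probe sets). The study's methods name limma without stating its terms, and culture alone was modelled here. The experiment number of the labels pairs the arrays, and deviations from the group means correlated at 0.75 in experiment 1 and at 0.56 and 0.72 in experiment 2, which are not independent because 2 ex vivo arrays mirror each other. The fits were tested on simulated data.

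The members and lists were chosen with earlier results of these data known. Values in every array are given for genes called in any test, the 6 with the largest change of 1 sign in both experiments, the 6 whose change differed most between the experiments, and the 4 with the highest and 4 with the lowest mean level. *Herc6*, *Rsad2* and *Parp9* were added after their values were seen. Alternatives covered the filter, normalization, moderation, threshold, block, a mean in place of the 2 cultured arrays of experiment 2, choice of probe set and each array left out.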

Additional observations from a re-analysis of the deposited data

How the results depend on the processing

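The absence of calls for culture among the 33 genes, 0, held under the other filters, normalizations, moderation and threshold with culture alone, with the replicate block, with averaging, with other choices of probe set and with each array left out. With alternatives chosen after seeing the data, all with the replicate block, it was 1 with the most variable probe set of each gene (that of *Cmpk2* tested only through the ex vivo arrays), 3 with the mean of a gene's probe sets (*Ifi27l2a*, *Cmpk2* and *Gbp3*) and 4 at an adjusted p under 0.1 (with *Rsad2* added). The median culture difference of -0.25 was -0.19 for probe sets at 50 or more in all arrays, -0.18 at 100 or more in 2 arrays, -0.30 with arrays centred on their medians, and between -0.31 and -0.17 with an array left out. With an array left out, *Bst2* lay between -0.40 and 0.00090, the highest without the ex vivo array of experiment 1, and with the block it was 0.028 without either array of experiment 1. *Ifitm3* lay between -0.011 and 0.19, the lowest without the ex vivo array of experiment 2.

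The 6 calls between the experiments were 12 at an adjusted p under 0.1, 1 without culture as a covariate, 11 with the most variable probe set and between 0 and 6 with an array left out. Over all tested probe sets the 14 calls for culture were 5 without a filter, 1 at 50 or more in all arrays, 31 at 100 or more, 68 at an adjusted p under 0.1, 550 with the replicate block, 0 with the cultured arrays of experiment 2 averaged and 187 with both, and between 0 and 257 with an array left out, 257 being the count without the cultured array of experiment 1. The 8170 calls between the experiments were 5164 without culture as a covariate and between 0 and 6916 with an array left out. Centring on medians moved their split of 3954 higher and 4216 lower to 3305 higher and 5419 lower. The interaction gave 0 calls throughout. The cause of these shifts was not tested.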
